A study of Mus musculus with 7 samples.

Results

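The NRF2 pathway and the antioxidant enzymes were read in the interscapular brown fat of Pgam5 knockout and wild-type mice. The set holds 40 genes of the 53715 in the count table, chosen by name from the pathway and from the enzyme families around it, and all 40 had a row. They are the regulator pair Keap1 and Nfe2l2, 8 NRF2 targets, and 30 other redox enzymes. KO mice carried the PGAM5 KO genotype and WT mice were Wild-type. Both were C57BL/6J males of 10 weeks. How the knockout was made, and in which cells, is not given in the sources used here. Messenger RNA of the whole fat pad was sequenced in 3 KO and 3 WT samples, and the fourth KO sample in the labels was not analysed here.

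NRF2, encoded by Nfe2l2, is a transcription factor that switches on genes for glutathione synthesis, thioredoxin recycling and detoxification when cells meet oxidants. KEAP1 holds it down by bringing it to a cullin ubiquitin ligase for degradation, and oxidants loosen that hold. PGAM5, a phosphatase of the mitochondrial membrane, binds KEAP1 in human cells, which is why NRF2 targets were read apart from the other enzymes. Glutathione peroxidases, peroxiredoxins and catalase remove peroxides, superoxide dismutases remove superoxide, glutathione transferases conjugate reactive compounds, and thioredoxins and glutaredoxins return oxidised proteins to their reduced form. Brown fat burns fuel in dense mitochondria and is therefore a tissue in which peroxide and superoxide are made.

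NRF2 acts through the antioxidant response element, whose core is TGACNNNGC on either strand. This core was looked for in RefSeq promoter windows of GRCm38.p6 that run from 250 bases before a start site to 50 after it. Such windows were given for 34 of the 40 genes, 42 windows in all. A core lay in 9 of the 42 windows (21.4%), against 12.4% of the 32851 windows of all genes. Besides the genes shown, the windows of Nfe2l2, Mgst1 and Sod1 held it. It lay in the windows of 4 of the 6 NRF2 targets that had one, and these 4 are shown. The share of all genes, as against windows, was not computed. Prdx1 and Gsta3 are shown because their KO and WT libraries did not overlap. The strand is that of the gene, capitals mark the core, which reads in reverse complement in 5 of the 6, and the place of the stretch on its chromosome stands before the colon.
Gclm, chr3:122245408-122245446, plus strand: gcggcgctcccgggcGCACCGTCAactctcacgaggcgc
Srxn1, chr2:152105542-152105570, plus strand, after the start site: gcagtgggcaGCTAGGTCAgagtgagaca
Txnrd1, chr10:82859099-82859137, plus strand: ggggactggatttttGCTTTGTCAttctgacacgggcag
G6pdx, chrX:74428914-74428952, minus strand: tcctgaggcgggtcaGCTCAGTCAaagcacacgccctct
Prdx1, chr4:116685451-116685489, plus strand: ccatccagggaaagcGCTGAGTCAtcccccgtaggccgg
Gsta3, chr1:21240449-21240487, plus strand: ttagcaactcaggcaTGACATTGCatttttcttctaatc
A match describes these letters and is not a measured binding site.

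The libraries held 18952348 to 21826942 counts in KO and 18034204 to 33617762 counts in WT. Pgam5 (chromosome 5, 110259130 to 110269913, mm10) had 1, 3 and 11 counts in KO, against 167, 122 and 186 counts in WT. Its log2 fold change was -4.84 (SE 0.59, adjusted p = 0.0243 by edgeR), and it missed the threshold in 6 of the 14 alternatives in which it was tested. On the first principal component KO 3 stood at 66.8 and WT 2 at -65, with the other 4 libraries between -13 and 8.23. Mitochondrial genome genes took 19.7% (KO 3) to 34.1% of the counts in KO and 30.3% to 43% (WT 2) in WT. The 10 brown adipocyte markers were all detected, with summed levels in CPM (counts scaled to library size, by TMM) of 17043 to 19497 in KO and 14912 to 18318 in WT, and 1 of 10, Ucp1, was higher in KO at an unadjusted p under 0.05. In whole tissue, fewer cells of a type and less RNA per cell cannot be told apart.

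Glutathione peroxidases stood at the top of the set in brown fat. Levels between genes were compared as CPM per kb of annotated exon. Gpx3, which encodes the secreted glutathione peroxidase, was the highest at 1284 in KO and 1671 in WT. Gpx4, which reduces lipid peroxides in membranes, followed at 454 in KO and 598 in WT, and the cytosolic Gpx1 at 292 in KO and 312 in WT. Next came the microsomal transferase Mgst1, catalase and the mitochondrial peroxiredoxin genes Prdx3 and Prdx5, which averaged 164 to 219 over the 6 libraries. The NRF2 targets stood lower. G6pdx averaged 39.4, Srxn1 15.4 and Txnrd1 11.9, and Gclc, Gclm and Hmox1 lay between 3.88 and 6.64. Nqo1 was at 0.829 in KO and 0.523 in WT, and Slc7a11 was barely detected.

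**Figure D1:**
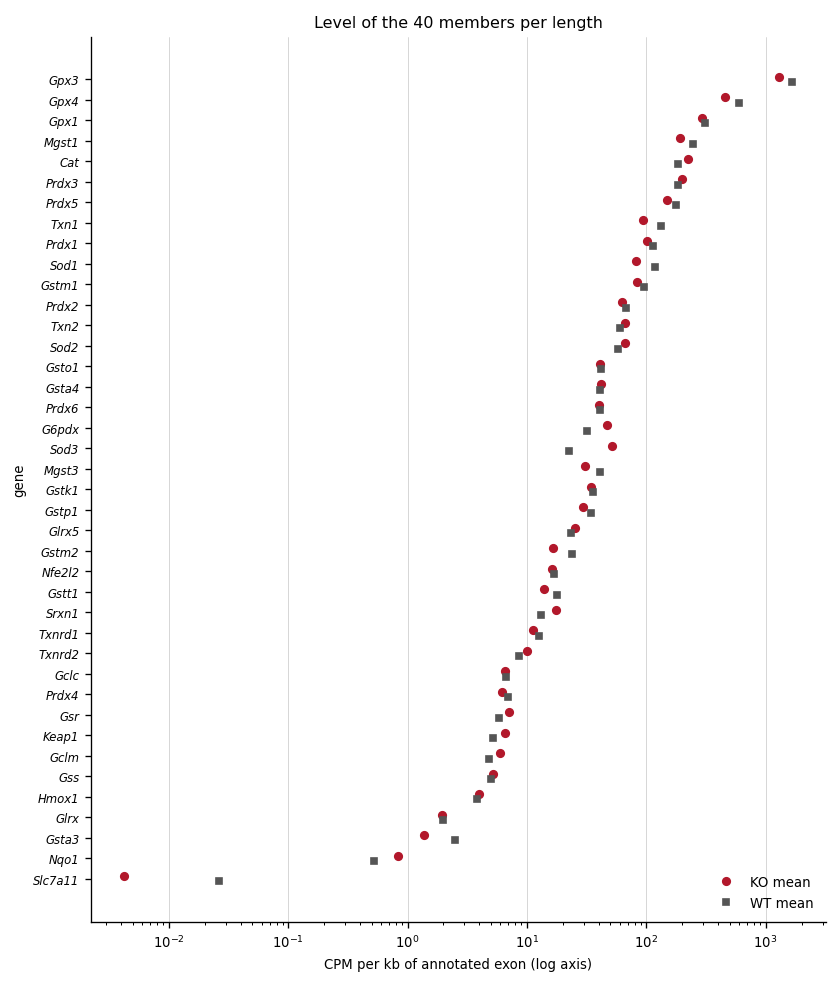
Mean level of each of the 40 genes in CPM per kb of annotated exon on a log axis, with a red circle for the mean of 3 KO libraries and a grey square for the mean of 3 WT libraries. Gpx3 is at the top (1284 in KO, 1671 in WT), Nqo1 and Slc7a11 are at the bottom, and Sod3 shows a wide gap with KO to the right.

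Of the 40 genes, 39 passed the filter on low counts and were tested. None passed the threshold of an edgeR adjusted p of 0.05, which 0.0595% of all 15123 genes tested passed. At an unadjusted edgeR p under 0.05 there were 4 (10.3%), against 11.8% of all genes. Of these Sod3 was higher in KO (2.56% of the 39, against 6.3% of all genes), and Gsta3, Gstm2 and Txn1 were lower (7.69%, against 5.49%). That count was 1 (Sod3) without KO 3, against 6.53% of all genes there, and 2 (Sod3 and Glrx5) without WT 2, against 8.29%. With no filter on low counts it was 8 of the 40 genes, a higher share than the 10.7% of all genes there. DESeq2 called 1 of the 39, Sod3, against 1.25% of all genes. The KO and WT libraries did not overlap for 8 of the 39 (20.5%), against 19.5% of all genes. KO lay above WT for Gclm, Sod3 and Cat (7.69%, against 10.1%) and below WT for Gsta3, Gstm1, Gstm2, Prdx1 and Txn1 (12.8%, against 9.39%). The shares without overlap were near the background. KO over WT, the log2 fold change was under 0.5 in size for 33 of the 39 genes and at least 1 for Sod3 alone, with a median of -0.05 against -0.002 over all genes.

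**Figure D2:**
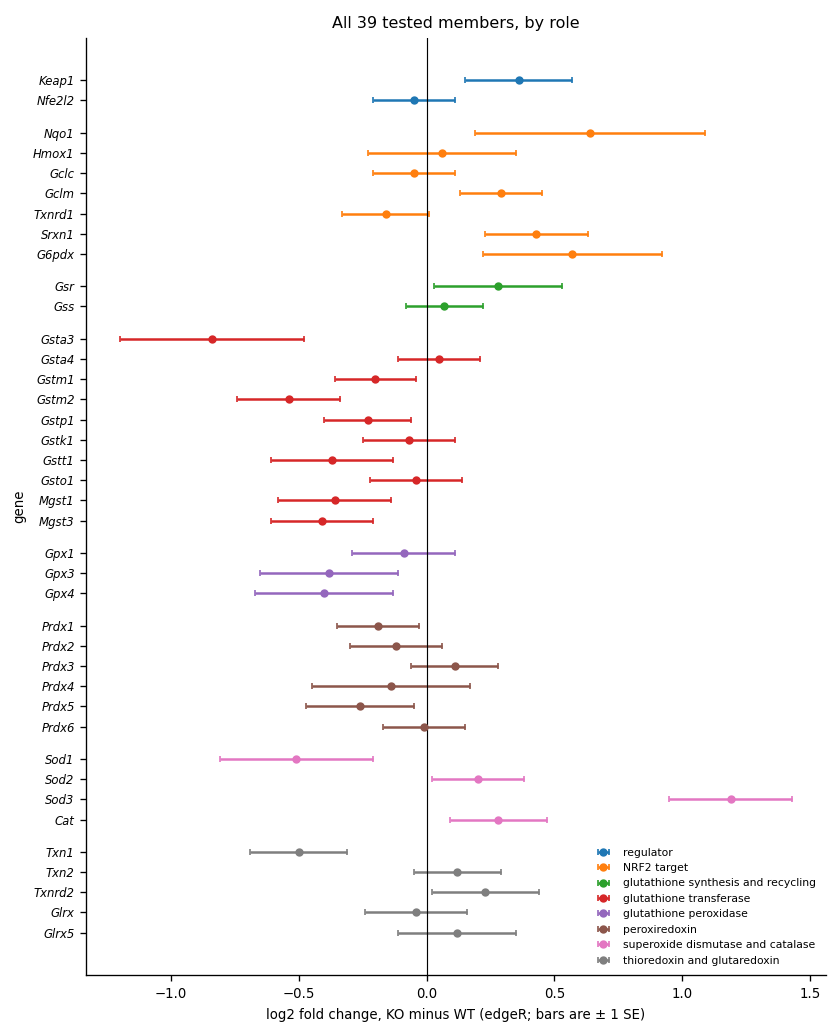
Log2 fold change, KO minus WT, of the 39 tested genes with bars of 1 SE, coloured by role. Sod3 lies farthest to the right at 1.19 and Gsta3 farthest to the left at -0.84, and 9 of the 10 glutathione transferases lie left of 0.

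The regulators came first in the pathway. Keap1 (chromosome 9, 21229730 to 21239361) had 24.9, 26.8 and 41.3 CPM in KO, against 22.7, 22.9 and 27.0 CPM in WT. The groups overlapped, and the highest value was that of KO 3. The log2 fold change was 0.36 (SE 0.21, adjusted p = 0.506 by edgeR), and it was 0.09 without KO 3. Nfe2l2 (chromosome 2, 75675513 to 75704641) had 61.5, 67.5 and 55.4 CPM in KO, against 62.3, 60.1 and 69.0 CPM in WT, a close and overlapping range. Its log2 fold change was -0.05 (SE 0.16, adjusted p = 0.892 by edgeR), with a 95% interval from -0.40 to 0.29. NRF2 activity is set largely by the stability of the protein, which RNA counts do not measure.

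Among the NRF2 targets, glutathione synthesis begins with glutamate-cysteine ligase. Its modifier subunit gene Gclm had 32.2, 40.4 and 39.7 CPM in KO, against 31.4, 28.9 and 31.4 CPM in WT. Every KO library was above every WT library, though KO 1 lay close to the WT values. On the log2 scale the fold change was 0.29 (SE 0.16, adjusted p = 0.472 by edgeR). Its catalytic subunit gene Gclc had 23.2, 26.0 and 24.6 CPM in KO, against 25.2, 22.5 and 28.5 CPM in WT. These ranges overlapped, with a log2 fold change of -0.05 (SE 0.16, adjusted p = 0.913 by edgeR). Slc7a11, the cystine importer that supplies this synthesis, had 0, 3 and 1 counts in KO, against 0, 12 and 10 counts in WT. The filter on low counts left it out of the main test. With no filter its log2 fold change was -2.42 (adjusted p = 0.459 by edgeR), on these few counts. The 0 in KO 1 allows up to 0.137 CPM and the 0 in WT 1 up to 0.12 CPM, and these limits cover counting error only.

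Srxn1, the sulfiredoxin that revives overoxidised peroxiredoxins, had 47.1, 38.7 and 63.3 CPM in KO, against 37.7, 39.5 and 33.8 CPM in WT. KO 2 lay within the WT range and KO 3 was the highest. KO over WT, the log2 fold change was 0.43 (SE 0.20, adjusted p = 0.428 by edgeR), and it was 0.22 without KO 3. Txnrd1, the cytosolic thioredoxin reductase, had 72.8, 84.2 and 82.4 CPM in KO, against 76.0, 91.1 and 101 CPM in WT. Its groups overlapped, with a log2 fold change of -0.16 (SE 0.17, adjusted p = 0.692 by edgeR). Both genes hold an element core in the windows shown above.

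G6pdx, the X-linked glucose-6-phosphate dehydrogenase that makes NADPH, had 90.7, 110.0 and 235 CPM in KO, against 119.5, 69.6 and 104 CPM in WT. KO 3 stood far above the other 5 libraries, and WT 2 was the lowest. The log2 fold change of 0.57 (SE 0.35, adjusted p = 0.510 by edgeR) became 0.04 without KO 3. Ikbkg, on the opposite strand, shares 418 exon bases with G6pdx and had 6162 counts against 16899, and the strand setting of the counting is not given. Nqo1, a quinone reductase and a standard NRF2 readout, had 20, 29 and 35 counts in KO, against 25, 9 and 28 counts in WT. At such counts its log2 fold change of 0.64 (SE 0.45, adjusted p = 0.547 by edgeR) has a 95% interval from -0.35 to 1.64. Hmox1, which encodes the inducible haem oxygenase, had 7.59, 7.30 and 5.96 CPM in KO, against 5.17, 5.20 and 9.56 CPM in WT. The WT values spanned those of KO, with a log2 fold change of 0.06 (SE 0.29, adjusted p = 0.945 by edgeR). Hmox1 is also expressed by macrophages, whose 10 markers summed to 126 to 178 CPM in KO and 126 to 196 CPM in WT, with Cd5l at 0 in a library. Of 9 tested macrophage markers 3 were positive and 6 negative, and 1, Slc40a1, was higher at an unadjusted p under 0.05. The part of these cells in the level of Hmox1 was not tested.

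**Figure D3:**
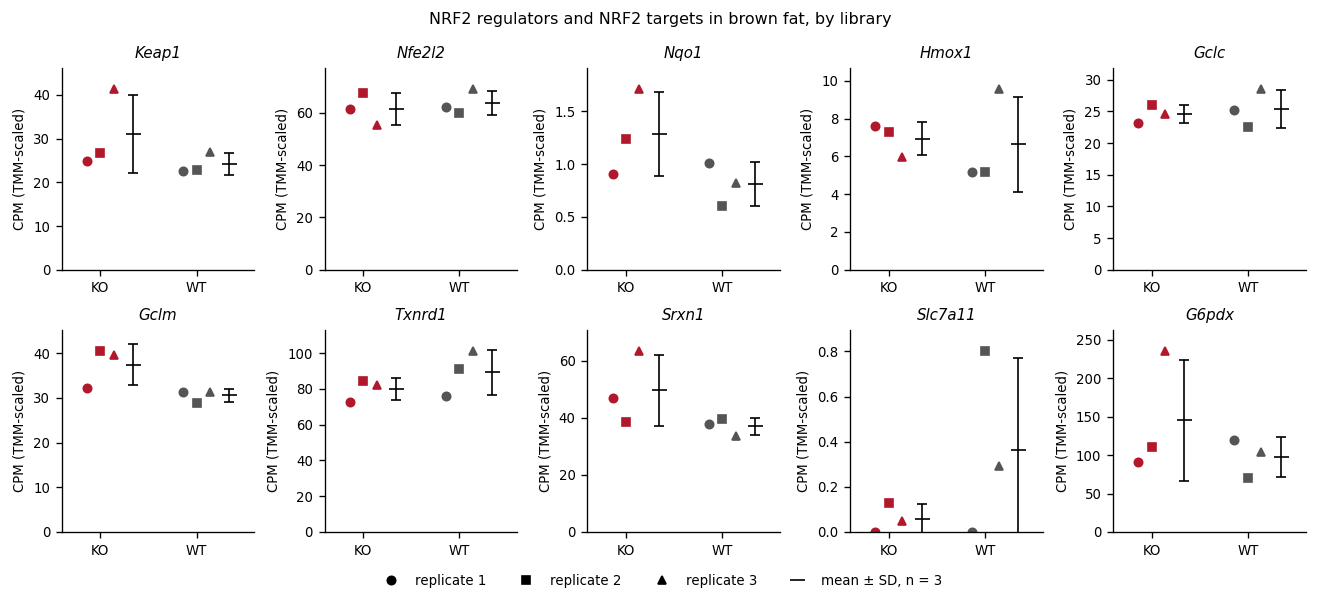
TMM-scaled CPM of Keap1, Nfe2l2 and the 8 NRF2 targets in each library, with KO left of WT, a symbol for each replicate number and bars for the mean and SD of 3 libraries. KO and WT overlap in each panel except Gclm, and KO 3 (the red triangle) is the highest library for Keap1, Nqo1, Srxn1 and G6pdx.

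Taken as a list, 5 of the 7 tested NRF2 targets had a positive log2 fold change and 2 a negative one. Their median was 0.29, against -0.002 over all genes tested. None passed the edgeR threshold, 0 had an unadjusted p under 0.05, and DESeq2 called 0. With no filter on low counts, which keeps Slc7a11, the median was 0.18. There Srxn1, G6pdx and Slc7a11 had an unadjusted edgeR p under 0.05, with Slc7a11 lower in KO. These made up a higher share of the targets than the 10.7% of all genes. The median of the targets relative to the WT mean was 0.07, 0.19 and 0.38 on the log2 scale in KO 1 to KO 3, against 0.03, -0.17 and 0.12 in WT 1 to WT 3, so KO 1 lay below WT 3. The median fold change was 0.15 without KO 3 and 0.01 without both WT 2 and KO 3. It also depended on which genes were listed as targets. A wider list of 18 genes, which adds transferases, peroxiredoxins, Gsr and Txn1 that NRF2 is known to regulate, had 7 positive of 17 tested and a median of -0.05. Of the 17, 3 were lower at an unadjusted edgeR p under 0.05 (17.6%, against 5.49% of all genes) and 0 higher. KO lay below WT without overlap for 5 (29.4%, against 9.39%) and above for 1 (5.88%, against 10.1%). Without both WT 2 and KO 3, 0 of the 17 had an unadjusted p under 0.05, and the median was -0.09. The 30 other redox enzymes had 10 positive, 20 negative and a median of -0.11, which became 0.02 when WT 2 was left out and 0.01 when KO 3 was left out as well.

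**Figure D4:**
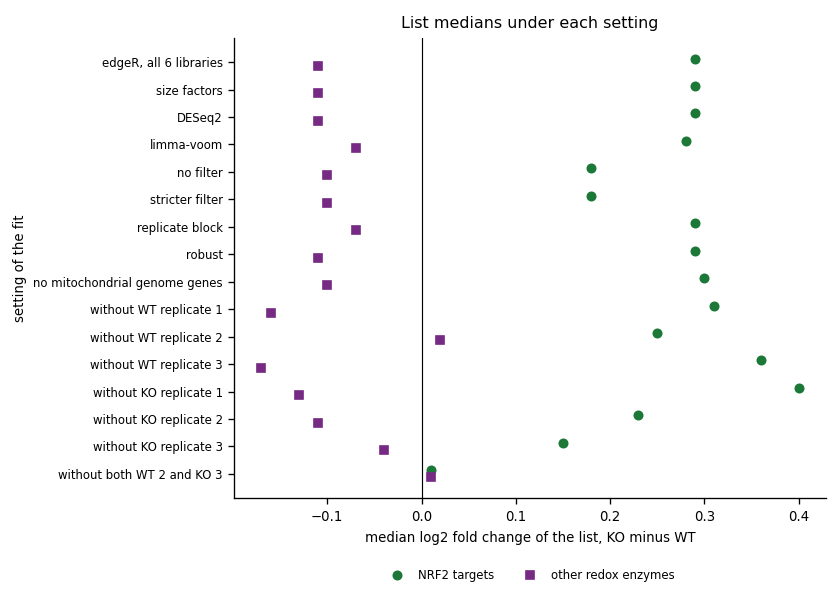
Median log2 fold change, KO minus WT, of the NRF2 targets (green circles) and of the other redox enzymes (purple squares) under each setting of the fit. The medians are 0.29 and -0.11 with all 6 libraries and both 0.01 without WT 2 and KO 3.

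Glutathione synthesis and recycling outside the NRF2 target list was read in Gss and Gsr, and neither passed. Gss, glutathione synthetase, stood at 30.9 ± 1.90 CPM in KO and 29.5 ± 0.312 CPM in WT (SD, n = 3 each), with a log2 fold change of 0.07 (SE 0.15, adjusted p = 0.858 by edgeR). Acss2, on the opposite strand, shares 395 exon bases with Gss and had 25791 counts against 4206. Gsr, the reductase that regenerates glutathione, was at 19.6 ± 7.05 CPM in KO and 16.2 ± 1.07 CPM in WT (SD, n = 3 each). KO 3 at 27.7 CPM set that KO spread, and the log2 fold change of 0.28 was -0.06 without KO 3.

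Of the 10 glutathione transferases 9 had a negative log2 fold change, with a median of -0.30. Without both WT 2 and KO 3 the median was -0.06 and 4 were positive. None passed the edgeR threshold, and DESeq2 called 0. Gstm2, of the mu class, had 29.8, 30.3 and 22.7 CPM in KO, against 34.2, 51.0 and 35.6 CPM in WT. All KO libraries were below all WT libraries, and WT 2 was the highest. The log2 fold change was -0.54 (SE 0.20, adjusted p = 0.388 by edgeR), and it was -0.34 without WT 2. Its neighbour on chromosome 3, Gstm1, had 117, 130.0 and 125 CPM in KO, against 149, 133 and 144 CPM in WT. Here too the groups did not overlap, but KO 2 and WT 2 were close, with a log2 fold change of -0.20 (SE 0.16, adjusted p = 0.596 by edgeR). Mu class genes lie side by side and resemble each other, so reads can be shared between them.

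Gsta3, of the alpha class, had 6.73, 8.33 and 2.88 CPM in KO, against 8.65, 13.7 and 10.0 CPM in WT. KO 2 lay just under the lowest WT library and KO 3 far under it. On the log2 scale the fold change was -0.84 (SE 0.36, adjusted p = 0.420 by edgeR). It was -0.51 without KO 3 and -0.31 without both WT 2 and KO 3. Gsta3 is abundant in mouse liver, and liver transcripts also differed between the libraries. The 6 hepatocyte markers summed to 455, 590.2 and 63.5 CPM in KO, against 367, 672 and 441 CPM in WT. All 6 were tested, 0 had an unadjusted p under 0.05, and no marker was at 0 in a library. Their part in the level of Gsta3 was not tested. The remaining transferase genes Gsta4, Gstp1, Gstk1, Gstt1, Gsto1, Mgst1 and Mgst3 had log2 fold changes from -0.41 (Mgst3) to 0.05 (Gsta4). Mgst1 was the highest of the family, with 441, 416 and 298 CPM in KO, against 440.4, 612 and 434 CPM in WT. KO 1 lay within the WT range, WT 2 was the highest and KO 3 the lowest.

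The 3 glutathione peroxidases had negative log2 fold changes, and none passed. Gpx3 had 2673, 2770.3 and 1543 CPM in KO, against 2621, 3642 and 2827 CPM in WT. KO 3 was the lowest library and WT 2 the highest, and the other 4 lay close together. KO over WT, the log2 fold change was -0.38 (SE 0.27, adjusted p = 0.560 by edgeR), and it was 0.00 without both WT 2 and KO 3. Gpx4 had 906, 669.6 and 770.3 CPM in KO, against 843, 1475 and 775 CPM in WT. WT 2 alone stood above the rest, and the log2 fold change of -0.40 (SE 0.27, adjusted p = 0.542 by edgeR) was -0.05 without it.

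The 6 peroxiredoxins had log2 fold changes from -0.26 for Prdx5 to 0.11 for Prdx3, and none passed. Prdx1, a cytosolic peroxiredoxin that is also an NRF2 target, had 322, 307 and 293 CPM in KO, against 370.4, 346 and 338 CPM in WT. The KO libraries were all below the WT libraries by a small margin. The log2 fold change was -0.19 (SE 0.16, adjusted p = 0.619 by edgeR). Prdx3, of the mitochondrial matrix, had 297, 283 and 303 CPM in KO, against 292, 237 and 289 CPM in WT, with WT 2 the lowest. Prdx6 had the fold change nearest 0 in the family, at 195 ± 9.35 CPM in KO and 196 ± 7.97 CPM in WT (SD, n = 3 each), a log2 fold change of -0.01 with a 95% interval from -0.36 to 0.35. Prdx2, which red blood cells hold in large amounts, was at 192 ± 29.7 CPM in KO and 208 ± 14.9 CPM in WT (SD, n = 3 each). The 10 erythrocyte markers summed to 526 to 788 CPM in KO and 757 to 928 CPM in WT. Hemgn was at 0 in at least 1 library, and 1 of 7 tested markers, Hbb-bt, was lower at an unadjusted p under 0.05. Their part in the level of Prdx2 was not tested.

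Sod3 showed the largest difference among the 39 genes. It encodes extracellular superoxide dismutase, which is secreted and binds to the matrix around cells, and it lies on chromosome 5 from 52363791 to 52371418 (mm10, ENSMUSG00000072941.5). It had 172, 159.7 and 243 CPM in KO, against 88.9, 62.5 and 101 CPM in WT. The lowest KO library was well above the highest WT library. The fold was 2.28 (log2 1.19, SE 0.24, 95% interval from 0.66 to 1.72), and the edgeR adjusted p of 0.258 did not pass. DESeq2 gave an adjusted p of 0.00125, and edgeR with no filter on low counts gave 1.31e-05. Over the 15 alternatives the adjusted p ran from 1.31e-05 to 0.485, the log2 fold change ran from 0.81 to 1.34, and the unadjusted p was under 0.05 in 15. The lowest fold change was that without both WT 2 and KO 3 (log2 0.81, adjusted p = 0.138 by edgeR).

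Sod3 is known to be made by vascular smooth muscle and stromal cells, whose markers were read beside it. The 7 pericyte and smooth muscle markers summed to 416, 519 and 516 CPM in KO, against 377, 581 and 494 CPM in WT, and 2 of 7 were higher at an unadjusted p under 0.05. The 8 fibroblast markers summed to 621, 638 and 689.6 CPM in KO, against 549.7, 550.3 and 662 CPM in WT, and 1 of 8 was higher. The 8 endothelial markers summed to 435, 622 and 820.3 CPM in KO, against 463, 351 and 546 CPM in WT, and 2 of 8 were higher. No marker of these vascular and stromal lists was at 0 in a library. The summed levels of KO and WT overlapped in these 3 lists, and Rgs5, at 302 CPM in KO and 346 CPM in WT, made up most of the pericyte and smooth muscle sum. By gene, the log2 fold change was positive for 8 of 8 endothelial and 6 of 7 pericyte and smooth muscle markers. It was positive for 5 of 8 fibroblast markers. Endothelial values ran from 0.07 for Cldn5 to 0.87 for Kdr. Pericyte and smooth muscle values ran from -0.20 for Rgs5 to 0.79 for Pdgfrb, and fibroblast values from -0.61 for Dpt to 0.92 for Pi16. Without both WT 2 and KO 3 the endothelial median went from 0.42 to 0.08. That of the pericyte and smooth muscle list went from 0.23 to 0.18, and that of the fibroblast list from 0.21 to 0.09. The 10 T, NK and B cell markers summed to 15.1, 13.3 and 19.7 CPM in KO, against 10.5, 5.54 and 6.33 CPM in WT, without overlap. Ighm, at 9.64 CPM in KO and 3.86 CPM in WT, made up the largest part of these sums. The sums therefore do not show a lack of overlap for the rest of the list. Of 5 tested, 1, Ighm, was higher at an unadjusted p under 0.05, and it alone of these did not overlap. Nkg7 and Klrb1c, which were not tested, also lay higher in KO without overlap. Ms4a1 and Klrb1c were at 0 in a library. The part of these cell types in the level of Sod3 was not tested.

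The intracellular superoxide dismutases and catalase did not pass. Sod1, the cytosolic copper-zinc enzyme, had 352, 297 and 332 CPM in KO, against 358, 728 and 315 CPM in WT. WT 2 alone stood apart, and the log2 fold change of -0.51 (SE 0.30, adjusted p = 0.497 by edgeR) was -0.04 without it. Sod2, the manganese enzyme of the mitochondrial matrix, was at 667 ± 58.8 CPM in KO and 581 ± 59.2 CPM in WT (SD, n = 3 each). The groups overlapped, with a log2 fold change of 0.20 (SE 0.18, adjusted p = 0.640 by edgeR). Catalase (Cat), which breaks down hydrogen peroxide in peroxisomes, had 534, 570.2 and 648 CPM in KO, against 508, 406 and 533 CPM in WT. KO lay above WT, but KO 1 and WT 3 were nearly equal, and the log2 fold change was 0.28 (SE 0.19, adjusted p = 0.548 by edgeR).

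**Figure D5:**
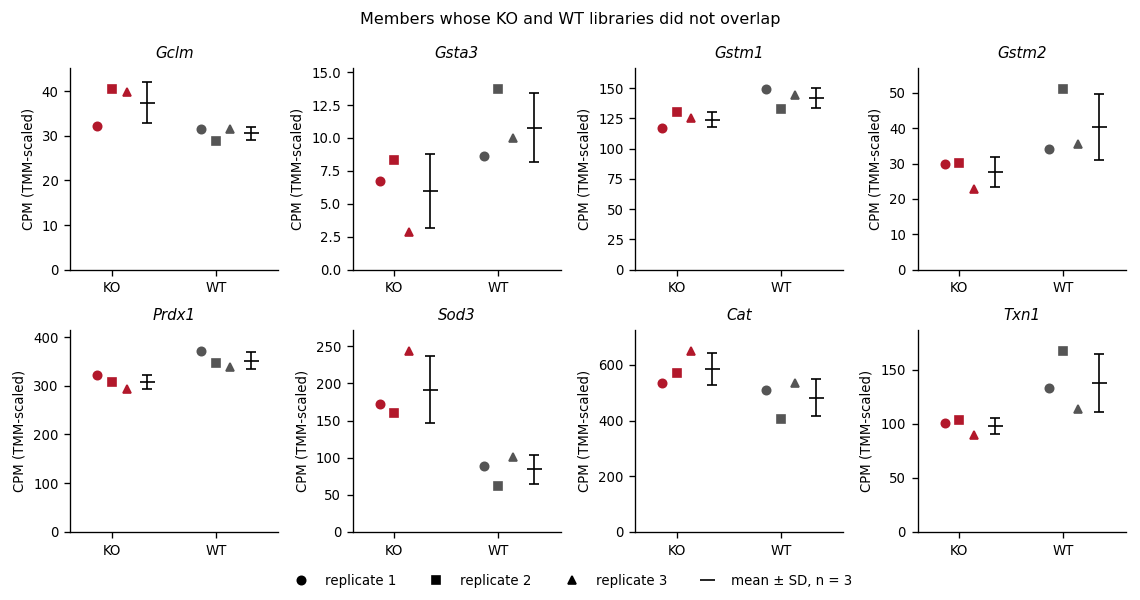
TMM-scaled CPM by library of the 8 genes whose KO and WT libraries did not overlap, with KO left of WT, a symbol for each replicate number and bars for the mean and SD of 3 libraries. KO is higher for Gclm, Sod3 and Cat and lower for Gsta3, Gstm1, Gstm2, Prdx1 and Txn1, and the gap is wide for Sod3 (159.7 to 243 CPM in KO, 62.5 to 101 CPM in WT).

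Of the 5 thioredoxin and glutaredoxin genes none passed. Txn1, the cytosolic thioredoxin, had 101, 104 and 89.5 CPM in KO, against 133, 167 and 114 CPM in WT. The KO libraries were all below the WT libraries. On the log2 scale the fold change was -0.50 (SE 0.19, adjusted p = 0.388 by edgeR), and it was -0.34 without WT 2. Txn2, the mitochondrial thioredoxin, had 297, 251 and 286 CPM in KO, against 242, 262 and 263 CPM in WT, with a log2 fold change of 0.12 (SE 0.17, adjusted p = 0.762 by edgeR). Glrx, the cytosolic glutaredoxin, stood at -0.04 (SE 0.20). Glrx5, which serves iron-sulfur cluster assembly in mitochondria, stood at 0.12 (SE 0.23).

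The libraries WT 2 and KO 3 held many of the extreme values. At least 1 of them was the highest or the lowest of the 6 libraries for 34 of the 39 genes (87.2%), against 79.8% of all genes tested. WT 2 was the highest for 18 of the 39 (46.2%), against 27.2% of all genes. It was the lowest for 4 of the 7 tested NRF2 targets (57.1%), against 27.1% of all genes. KO 3 and WT 3 were each the highest for 3 of these 7 (42.9%), against 26.5% and 12.6% of all genes. Without both WT 2 and KO 3, 12 of the 39 fold changes turned sign and 0 of the 39 passed. Sod3 and Glrx5 then had an unadjusted edgeR p under 0.05 (5.13%, against 8.49% of all genes).

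Other genes of the pathway were read from lists chosen by function. Of 16 partners of NRF2, such as the cullin Cul3, BACH1 and the small MAF proteins with which NRF2 pairs on DNA, all were tested and none passed the edgeR threshold. At an unadjusted p under 0.05 there were 2 (12.5%, against 11.8% of all genes), both small MAF genes and both lower, and DESeq2 called 0. Maff had 1.14, 2.88 and 2.39 CPM in KO, against 3.07, 6.67 and 4.27 CPM in WT, without overlap, a log2 fold change of -1.11 (SE 0.42, adjusted p = 0.388 by edgeR). Mafk had a log2 fold change of -0.54 (SE 0.24, adjusted p = 0.422 by edgeR).

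Of 22 further NRF2 targets 22 were tested, 9 were positive, none passed, and DESeq2 called 0. Abcc1, a pump that exports glutathione conjugates, was the 1 gene with an unadjusted p under 0.05 (4.55% of the list, where all genes gave 11.8%), at log2 0.46 (SE 0.16, adjusted p = 0.375 by edgeR). Of 42 further redox enzymes 37 were tested and none passed, with 2 higher (5.41%, against 6.3% of all genes) and 3 lower (8.11%, against 5.49%) at an unadjusted p under 0.05 and 0 called by DESeq2. Hpgds, which makes prostaglandin D and belongs to the sigma class of transferases, had 3.27, 1.80 and 3.18 CPM in KO, against 1.54, 0.867 and 0.647 CPM in WT, without overlap, log2 1.43 (SE 0.44, adjusted p = 0.350 by edgeR). The other gene higher in KO was Gstp3, of the pi class, with 0.50, 0.515 and 1.86 CPM in KO, against 0.364, 0.133 and 0.235 CPM in WT, few reads in each library. Gstm6, of the mu class, had 0.91, 0.30 and 0.147 CPM in KO, against 1.05, 2.13 and 1.27 CPM in WT, also few reads. Msrb3, a methionine sulfoxide reductase, had a log2 fold change of -0.54 (SE 0.21, adjusted p = 0.390 by edgeR).

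Of 14 genes that supply NADPH 13 were tested, 10 were positive, none passed, and DESeq2 called 0. Pgls, the lactonase of the pentose phosphate pathway, was the 1 gene with an unadjusted p under 0.05 (7.69% of the list, where all genes gave 11.8%). It had 122, 96.9 and 126 CPM in KO, against 73.1, 79.9 and 82.6 CPM in WT, without overlap, log2 0.55 (SE 0.17, adjusted p = 0.350 by edgeR). Pgd, which follows it in that pathway, had 96.1, 119 and 506 CPM in KO, against 141, 69.6 and 103 CPM in WT. KO 3 alone was far above the others, and the log2 fold change of 1.20 (SE 0.57, adjusted p = 0.428 by edgeR) was -0.18 without both WT 2 and KO 3. The median of the 13 genes, 0.22, was 0.01 without these libraries.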

How the data were processed

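Reads of poly(A) RNA were counted per gene. The authors deposited raw counts, whole numbers without normalization. The submitters' processing notes name mm10, featureCounts 1.6.2, HISAT2 2.1.0 and DESeq2, and neither the annotation release nor the strand setting was found in the labels. Columns were matched to samples by title. Planned for 3 WT and 4 KO samples, the comparison is 3 against 3. The labels do not say whether each library is a separate animal, so p-values measure only the spread between these samples, which may be technical.

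Genes were matched by Ensembl identifier to GENCODE release M 21, whose exons gave lengths and positions. filterByExpr (minimum count 10, minimum total 15) left 15123 genes. The genotypes were compared in edgeR 4.0.16 (quasi-likelihood test) with TMM scaling and Benjamini-Hochberg adjustment over all genes, threshold 0.05 (R 4.3.3, limma 3.58.1). CPM are counts scaled to TMM library sizes. Fold changes on the log2 scale give KO over WT, with intervals at 95% from SE and the fit's degrees of freedom. The test was tested on simulated data. Alternatives were DESeq2 1.42.0, its size factors, limma-voom, other filters, a replicate block, a robust fit, no mitochondrial genome genes, and libraries left out.

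The members, lists and alternatives were chosen with earlier results of these data known. Named in full were Keap1, Nfe2l2, the 8 NRF2 targets and members with an unadjusted p under 0.05 or without overlap; others were named by level per length or, in further lists, by smallest p. Some values are not reported here. Nnt was named whatever its value, and Glrx5 was singled out after its values were seen. Of skeletal muscle markers (summed 1.96 to 34.5 CPM in KO, 7.96 to 41.4 CPM in WT) 0 of 7 tested had an unadjusted p under 0.05.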

Additional observations from a re-analysis of the deposited data

How the results depend on the processing

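With DESeq2 181 of all genes were called and with no filter 663, against 9; Sod3 was the 1 member called in each. With the replicate block 5 genes and 0 members were called, and without both WT 2 and KO 3 27 genes and 0 members. Leaving out single libraries gave 0 (without KO 2), 1 (without KO 1) or up to 17 genes (without WT 2), and 0 members. Pgam5 missed the threshold with limma-voom (log2 -5.21), with the replicate block (-4.95) and without WT 1, WT 3, KO 1 or KO 2, its log2 fold change running from -6.18 to -4.35 with single libraries left out. The NRF2 target median was 0.01 without both WT 2 and KO 3 and 0.15 to 0.40 with single libraries left out. G6pdx was -0.15 without both. With single libraries left out, log2 fold changes changed sign within -0.13 to 0.02 for Nfe2l2, -0.10 to 0.42 for Hmox1 and -0.13 to 0.05 for Gclc. Causes were not tested. The other alternatives run kept direction and side of the threshold for the 16 tested genes named in full. The stricter filter gave no value for Pgam5 and Nqo1, and Slc7a11 was not among the 16. Same-numbered libraries did not deviate together (correlations -0.114, 0.102 and 0.091), and not every library correlated best with its own number. With 3 libraries a group, these values cannot exclude that the numbers pair them. Nqo1 and Slc7a11 are limited by depth.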

Other observations

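Nnt, the mitochondrial transhydrogenase that makes NADPH, is known to be inactivated by a deletion in C57BL/6J mice. It had 0, 4 and 0 counts in KO, against 1, 1 and 3 counts in WT, and was not tested. Another annotated gene named Nnt lies within its span on the same strand and had 0 counts in every library. How reads shared by overlapping genes were counted is not given. The level of Nnt therefore cannot be read from these counts, and the deletion was not tested. Other NADPH genes were well detected, such as Taldo1 with 436 to 749 CPM in KO and 313 to 444 CPM in WT.

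With all 6 libraries KO and WT overlapped for Glrx5, a gene singled out after its values were seen (log2 0.12, adjusted p = 0.828 by edgeR). They did not overlap once WT 2, its highest library, was left out. The share of all genes without overlap under that choice was not computed, and nothing is concluded from it. The KO libraries lay at 87.9 to 97.0 CPM, against 64.9 and 74.1 CPM in WT 1 and WT 3, while WT 2 was at 119 CPM. Without both WT 2 and KO 3 its log2 fold change was 0.41 (edgeR adjusted p = 0.519), which did not pass. Among tested genes within 1 Mb, an unadjusted p under 0.05 was found for 2 of 12 around Sod3, 7 of 35 around Gstm2, 0 of 8 around Gsta3 and 0 of 9 around Txn1, and edgeR called 0 of them. The share over all genes was 11.8%.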
